A study of Gossypium hirsutum with 6 samples.

Results

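The genes described here encode the enzymes that remove reactive oxygen species, the NADPH oxidases that make superoxide at the plasma membrane (RBOH), and the alternative oxidase of mitochondria (AOX), in seedlings of upland cotton, Gossypium hirsutum CCRI24. They were taken by the Arabidopsis locus that the table of expression values gives for each cotton gene, from a list of 32 loci. Of these loci, 26 had at least 1 row, which gave 98 of the 70478 genes of the table. The other 6 loci (CAT1, CAT3, FSD1, DHAR1, 2CPA and AOX1D) were not analysed here. Of the 98 genes, 74 from 25 loci averaged 0.5 FPKM or more across libraries, and these were tested. Of the 24 genes below that level, 6 were listed at 0 in every library. Just below it were MDAR2 Gh_D13G1521 at 0.35 FPKM, PRXIIB Gh_A05G3849 at 0.416 FPKM and AOX2 Gh_D04G1513 at 0.481 FPKM. Just above it were RBOHF Gh_D12G1807 at 0.524 FPKM, and APX3 Gh_A01G1388 and CSD2 Gh_D05G0857 at 0.545 FPKM each.

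Seedlings aged 4 d were moved for 24 h to medium holding either the solvent (group DMSO) or 5 µM AZD (group AZD), an inhibitor that competes with ATP in the active site of the TOR kinase. Each group had 3 libraries, and all seedlings grew at 25 °C with 16 h of light and 8 h of dark. RNA was taken from seedlings, and the share of cotyledons, stem and root in each library is not given. TOR is a protein kinase that promotes growth when nutrients and energy suffice, and the question put to these genes is which of them changed when it was inhibited.

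In plants, superoxide is made in chloroplasts and mitochondria as a by-product of electron transport and at the plasma membrane by RBOH enzymes. Superoxide dismutases convert it to hydrogen peroxide, which catalases, ascorbate peroxidases and peroxiredoxins reduce to water. The oxidised ascorbate is returned by monodehydroascorbate and dehydroascorbate reductases, the latter with glutathione that glutathione reductase regenerates. Alternative oxidase passes electrons from ubiquinol directly to oxygen and so limits superoxide formation in the respiratory chain, and in Arabidopsis AOX1A is the form best known for induction by stress. Roles and cell compartments below are those of the Arabidopsis protein. Cotton is a tetraploid with an A and a D subgenome, so a locus usually has several cotton copies, and reads of near-identical copies may have been split between them.

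The values are FPKM, numbers of sequenced fragments scaled for transcript length and for the mapped fragments of a library. Fold changes are differences of mean log2(FPKM + 0.5), AZD minus DMSO, tested with limma over all 43158 tested genes with Benjamini-Hochberg adjustment. A gene is called higher or lower at an adjusted p under 0.05. The scale understates the change of genes of low expression. Levels of any transcript reflect both the RNA per cell and the share of cells that make it, and these cannot be told apart in RNA of seedlings.

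The 3 DMSO libraries differed from each other more than the 3 AZD libraries did. Over all tested genes the rank correlation was 0.88 to 0.904 between pairs of DMSO libraries, 0.92 to 0.933 between pairs of AZD libraries and 0.849 to 0.878 between the groups. The 3 most abundant genes took 56.0 to 73.9% of the summed FPKM of a library. DMSO replicate 1 was the lowest of its group in 38, the highest in 26 and between the others in 10 of the 74 tested copies. The SD of log2(FPKM + 0.5) was larger in DMSO than in AZD for 60 of the 74 copies, with a median of 0.33 against 0.2. Both counts cover these copies only, without the same counts over all tested genes beside them. Marker lists moved with the groups too. The summed level of photosynthesis genes, of light harvesting and Rubisco (53 genes, 7 of them at 0 in every library) was 15450 to 32515 FPKM in DMSO and 58640 to 66170 FPKM in AZD. The sum over genes known for induction by low oxygen, or hypoxia (53 genes, 11 at 0 throughout) was 1129 to 2418 FPKM in DMSO and 186 to 263 FPKM in AZD. Root genes (30 genes, 6 at 0 throughout) summed to 19.4 to 34.3 FPKM in DMSO and 18.3 to 31.5 FPKM in AZD, and seed storage genes (16 genes, 2 at 0 throughout) to between 5.13 and 9.66 FPKM in all 6 libraries.

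The direction of every change rests on the sample labels. Published directions for a set of jasmonate genes of this experiment were looked up as a check of the labels, and for 23 of the 24 genes the ratio of group means by label ran the opposite way. Published directions from quantitative RT-PCR, a separate assay, were looked up for 10 genes (3 of them also in the jasmonate set), and for 9 the ratio by label again ran the opposite way. In the published account, carbon fixation was enriched among genes lowered by AZD. The photosynthesis list above is a different set, mostly of light harvesting genes. Its Rubisco genes matched to RBCS1B lay higher in AZD, and those matched to RBCS2B, of low expression, lay lower. The published rise in jasmonate content runs with the published jasmonate genes. It was measured in older seedlings treated for longer, and does not bear on which library is which. The jasmonate and RT-PCR directions are what an exchange of both group names in the deposited labels would give. The exception is the 1 gene in each set that ran with the labels. An exchange would turn every direction given here. The labels are the only assignment of libraries to groups used, so DMSO and AZD mean throughout the libraries so labelled.

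Of the 74 tested copies, 5 were higher in AZD, 1 was lower and 68 were not called. The called share of the copies was 8.11%, beside 4.69% of all tested genes (1.89% higher and 2.80% lower). The median log2 fold change of the 74 copies was 0.02, with 38 above 0 and 36 below, beside a median of -0.01 over all tested genes. The 3 libraries of one group lay entirely above or below those of the other in 25 copies, or 33.8%, which is close to the 30.0% of all tested genes. AZD lay above in 16 of the 74 copies, beside 14.5% of all tested genes, and below in 9 of the 74, beside 15.5%. At an unadjusted p under 0.05 there were 23 of the 74 copies, beside 10087 of all 43158 tested genes (23.4%). The called copies were 2 of thylakoid ascorbate peroxidase (TAPX, AT1G77490), 2 of the plastid dehydroascorbate reductase (DHAR3, AT5G16710) and 1 of the plastid copper/zinc superoxide dismutase (CSD2, AT2G28190), all higher, and 1 of the mitochondrial manganese superoxide dismutase (MSD1, AT3G10920), lower.

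**Figure D1:**
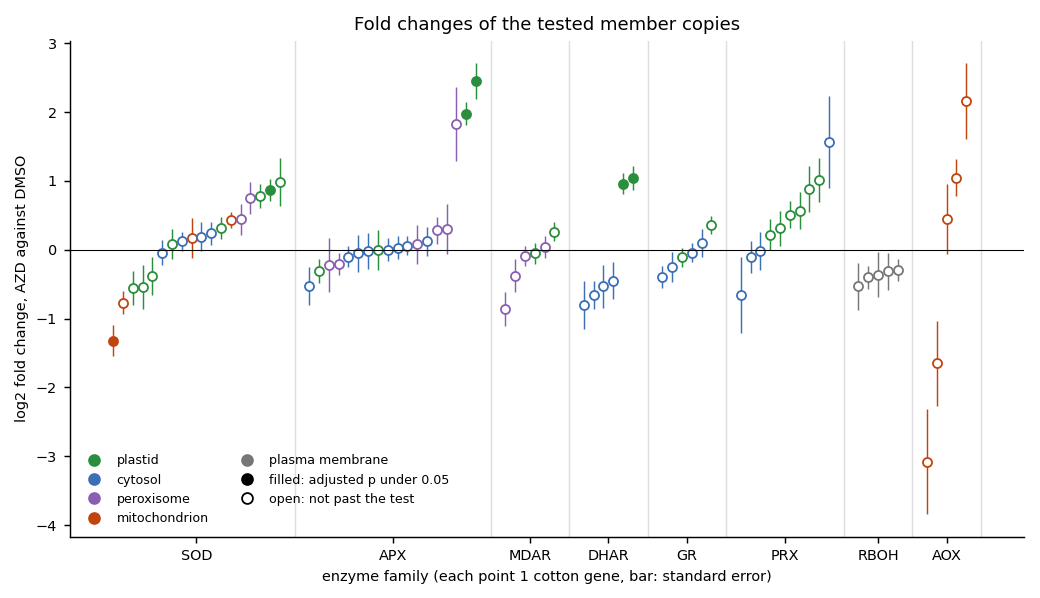
Log2 fold change of each of the 74 tested copies, AZD minus DMSO on the log2(FPKM + 0.5) scale, by enzyme, with bars for the standard error and colours for the compartment. Filled points are the 6 called copies, and the 2 TAPX copies at 1.98 and 2.45 are the highest of them.

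The ascorbate peroxidases reduce hydrogen peroxide with ascorbate as the electron donor. The copy of TAPX on chromosome A06, Gh_A06G0383, read 8.40, 6.87 and 5.49 FPKM in DMSO replicates 1 to 3 and 27.2, 29.7 and 28.6 FPKM in AZD. Its mean was 6.92 ± 1.45 FPKM (SD, n = 3) in DMSO and 28.5 ± 1.26 FPKM (SD, n = 3) in AZD, 4.12 times higher (log2 fold change 1.98, SE 0.17, limma adjusted p = 0.00657). All AZD libraries lay well above all DMSO libraries, and the gene was called whichever library was left out, with adjusted p of 0.00497 to 0.0378. Its D06 counterpart, Gh_D06G0413, read 8.56, 4.18 and 4.80 FPKM in DMSO and 34.9, 30.0 and 33.1 FPKM in AZD (5.59 times higher, log2 fold change 2.45, SE 0.26, limma adjusted p = 0.00982). The groups did not overlap either, and the call was lost without AZD replicate 1, 2 or 3, at adjusted p of 0.0565, 0.0514 and 0.0525.

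The remaining TAPX copy, Gh_D05G2244, did not follow the other two. It read 23.9, 36.7 and 31.6 FPKM in DMSO and 24.4, 24.0 and 24.8 FPKM in AZD (log2 fold change -0.31, adjusted p = 0.357), so that its groups overlapped. The ratio of the summed A06 and D06 copies to this copy was 0.709, 0.302 and 0.325 in DMSO and 2.55, 2.48 and 2.49 in AZD, a comparison chosen after the values were seen. The D05 copy was therefore the most abundant TAPX transcript in each DMSO library and the least abundant in each AZD library. The sum over the 3 TAPX copies was 40.9, 47.7 and 41.9 FPKM in DMSO and 86.4, 83.8 and 86.6 FPKM in AZD, 1.97 times higher (adjusted p = 0.00759 over 13335 locus sums, 0.0533 without AZD replicate 1).

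**Figure D2:**
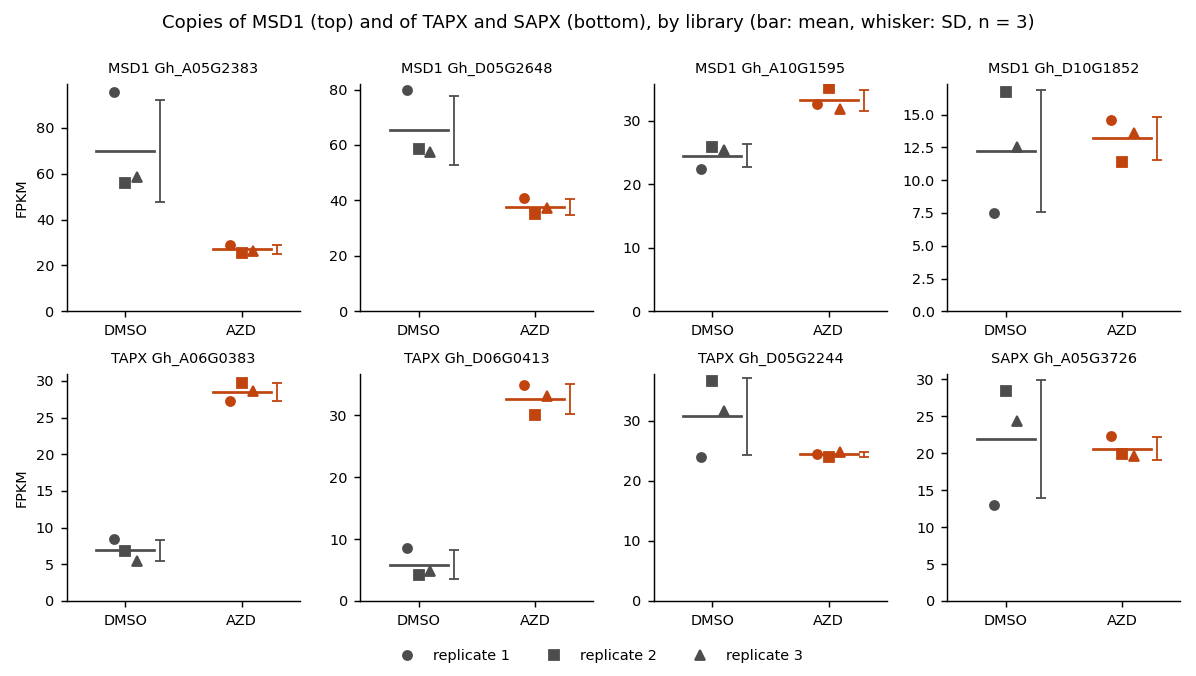
FPKM per library of the copies of MSD1 (top) and of TAPX and SAPX (bottom), with horizontal bars for the group mean and whiskers for the SD (n = 3). The A06 and D06 copies of TAPX are higher in AZD while Gh_D05G2244 and SAPX overlap, and the A05 and D05 copies of MSD1 lie lower in AZD while Gh_A10G1595 lies higher and Gh_D10G1852 overlaps.

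The other ascorbate peroxidases were not called. The most abundant copy of the cytosolic APX1, Gh_A05G0863, had 121.3 ± 38.8 FPKM in DMSO and 113.1 ± 12.6 FPKM in AZD (SD, n = 3 each), with a log2 fold change of -0.05 (adjusted p = 0.934). The 6 tested APX1 copies ranged from -0.53 to 0.06 in log2 fold change, with a median of -0.01. APX2 Gh_D08G2095, also cytosolic, had 33.4 ± 4.16 FPKM in DMSO and 31.1 ± 3.26 FPKM in AZD (adjusted p = 0.753). The stromal and mitochondrial SAPX had 1 copy, Gh_A05G3726, at 13.0, 28.4 and 24.4 FPKM in DMSO and 22.4, 19.9 and 19.6 FPKM in AZD. Its DMSO libraries spanned all of the AZD values, and the fold change was -0.01 on the log2 scale (adjusted p = 0.984).

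APX3 is anchored in the peroxisomal membrane in Arabidopsis. Its most abundant copy, Gh_A03G1812, read 75.1, 118.9 and 89.4 FPKM in DMSO and 117.2, 112.4 and 108.1 FPKM in AZD (log2 fold change 0.28, adjusted p = 0.456). A copy of low expression, Gh_D01G1632, read 3.39, 0.456 and 0.463 FPKM in DMSO and 5.50, 4.74 and 4.58 FPKM in AZD. Its groups did not overlap but DMSO replicate 1 lay nearer to the AZD libraries than to its own group (log2 fold change 1.83, SE 0.54, adjusted p = 0.112), and without that library it was called at an adjusted p of 0.00413.

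The superoxide dismutases gave 1 call in each direction among 18 tested copies, with a median log2 fold change of 0.18. CSD2 is the copper/zinc form of chloroplasts. Its most abundant copy, Gh_D09G0858, read 38.1, 47.4 and 39.4 FPKM in DMSO and 81.1, 83.7 and 64.9 FPKM in AZD, with means of 41.7 ± 5.02 and 76.6 ± 10.1 FPKM (SD, n = 3 each). The log2 fold change was 0.87 (SE 0.16, limma adjusted p = 0.0412), and the groups did not overlap. This call was lost on leaving out any 1 library, at adjusted p of 0.0524 (without DMSO replicate 1), 0.0574 (DMSO 2), 0.116 (DMSO 3), 0.166 (AZD 1), 0.141 (AZD 2) and 0.087 (AZD 3).

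The A09 counterpart, Gh_A09G2473, had 20.1, 22.1 and 18.0 FPKM in DMSO and 40.1, 36.8 and 28.3 FPKM in AZD, and was just short of the threshold (log2 fold change 0.78, SE 0.17, adjusted p = 0.0578). After quantile normalization it passed, at an adjusted p of 0.0481. All 4 CSD2 copies had a positive fold change, from 0.32 to 0.98, and in 3 of them AZD lay above DMSO in every library. The largest fold change and 1 of these 3 came from Gh_D05G0857, with means of 0.226 FPKM in DMSO and 0.864 FPKM in AZD. That copy reached the tested level only through its AZD values, and fell below it without AZD replicate 2 or 3. The summed CSD2 level was 83.1 ± 9.31 FPKM in DMSO and 139.1 ± 19.3 FPKM in AZD (1.67 times higher, adjusted p = 0.037). That call held only without DMSO replicate 1 or 2 (adjusted p = 0.0493 and 0.0452), and without DMSO replicate 3 or AZD replicates 1, 2 and 3 the adjusted p was 0.102, 0.15, 0.127 and 0.0632.

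The other copper/zinc forms were not called. The cytosolic CSD1 had 4 copies with log2 fold changes from -0.04 to 0.24, and its most abundant one, Gh_A13G1450, had 98.6 ± 17.7 FPKM in DMSO and 112.2 ± 17.7 FPKM in AZD (SD, n = 3 each, adjusted p = 0.631). The ratio of summed CSD2 to summed CSD1, chosen after the values were seen, was 0.275, 0.26 and 0.231 in DMSO and 0.399, 0.439 and 0.332 in AZD, without overlap. The more abundant copy of the peroxisomal CSD3, Gh_D11G2412, read 23.0, 33.3 and 19.3 FPKM in DMSO and 50.0, 37.8 and 38.5 FPKM in AZD (log2 fold change 0.75, adjusted p = 0.121).

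The iron forms of plastids, FSD2 and FSD3, belong in Arabidopsis to the nucleoid of the chloroplast. FSD2 Gh_D07G0457 had 35.8 ± 8.16 FPKM in DMSO and 25.6 ± 10.9 FPKM in AZD (SD, n = 3 each, adjusted p = 0.379). FSD3 Gh_A13G0530 had 13.3 ± 4.42 and 9.85 ± 1.98 FPKM (adjusted p = 0.481). The other FSD3 copy, Gh_D13G0600, was not called either (log2 fold change -0.56, adjusted p = 0.237) and passed only without DMSO replicate 1, at an adjusted p of 0.0467.

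MSD1 is the manganese enzyme of the mitochondrial matrix. Its A05 copy, Gh_A05G2383, read 95.5, 55.9 and 58.5 FPKM in DMSO and 29.1, 25.4 and 26.5 FPKM in AZD, with means of 70.0 ± 22.1 and 27.0 ± 1.88 FPKM (SD, n = 3 each). The copy was 2.59 times higher in DMSO (log2 fold change -1.32, SE 0.23, limma adjusted p = 0.0338). Every DMSO library lay above every AZD library, with DMSO replicate 1 the highest by far. The call held without DMSO replicate 1 or 2 (adjusted p = 0.0128 and 0.0488) and was lost without DMSO replicate 3 or AZD replicates 1, 2 and 3, at 0.0741, 0.123, 0.125 and 0.114.

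The D05 counterpart of MSD1, Gh_D05G2648, read 79.7, 58.5 and 57.5 FPKM in DMSO and 40.9, 35.0 and 37.2 FPKM in AZD. It lay lower in each AZD library but was not called (log2 fold change -0.77, SE 0.17, adjusted p = 0.0597, and 0.0475 without DMSO replicate 1). The ratio of the A05 to the D05 copy was 1.2, 0.955 and 1.02 in DMSO and 0.711, 0.726 and 0.712 in AZD. Both copies were thus near equal in DMSO and unequal in AZD. An exact permutation test on 3 libraries against 3 cannot give a p under 0.1.

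The A10 copy of MSD1 lay the other way. Gh_A10G1595 read 22.4, 25.8 and 25.3 FPKM in DMSO and 32.6, 35.1 and 31.8 FPKM in AZD, without overlap (log2 fold change 0.43, SE 0.12, adjusted p = 0.100). Its D10 counterpart, Gh_D10G1852, overlapped between the groups (log2 fold change 0.17, adjusted p = 0.775). The ratio of the A05 and D05 copies to the A10 and D10 copies, chosen after the values were seen, was 5.86, 2.69 and 3.07 in DMSO and 1.48, 1.3 and 1.4 in AZD. The MSD1 sum was 172.0 ± 28.8 FPKM in DMSO and 111.0 ± 5.45 FPKM in AZD (log2 fold change -0.62) and was not called, at an adjusted p of 0.0521. The sum passed without DMSO replicate 1 (adjusted p = 0.0422) and after quantile normalization (0.0477).

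Dehydroascorbate reductases regenerate ascorbate at the expense of glutathione. Both copies of the plastid DHAR3 were called. Gh_A07G0716 read 14.5, 13.1 and 10.4 FPKM in DMSO and 26.0, 23.6 and 25.2 FPKM in AZD (1.97 times higher, log2 fold change 0.96, SE 0.15, limma adjusted p = 0.0278). Gh_D07G0778 read 20.2, 16.9 and 13.6 FPKM in DMSO and 37.1, 35.6 and 31.8 FPKM in AZD (2.06 times higher, log2 fold change 1.04, SE 0.17, limma adjusted p = 0.031). In both copies each AZD library exceeded each DMSO library, and DMSO replicate 1 was the nearest to AZD. Both stayed called without that library (adjusted p = 0.0175 for the A07 copy and 0.0156 for the D07 copy). Without DMSO replicate 2 or 3 the adjusted p was 0.0586 and 0.0651 for the A07 copy and 0.069 and 0.0724 for the D07 copy. Without AZD replicate 1, 2 or 3 it was 0.124, 0.0977 and 0.0993 for the A07 copy and 0.134, 0.117 and 0.092 for the D07 copy. The sum of the 2 copies was 29.5 ± 5.34 FPKM in DMSO and 59.7 ± 3.1 FPKM in AZD (SD, n = 3 each, adjusted p = 0.0157). That call was lost without AZD replicate 1, 2 or 3, at 0.0879, 0.0702 and 0.0617.

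The cytosolic DHAR2 had the opposite sign in its 4 copies, from -0.80 to -0.45, and none was called. The most abundant copy, Gh_A05G3064, read 122.2, 147.7 and 171.7 FPKM in DMSO and 105.7, 94.7 and 77.9 FPKM in AZD, without overlap (log2 fold change -0.66, SE 0.20, adjusted p = 0.111). DHAR2 Gh_D04G0580 was not called over all libraries (log2 fold change -0.80, adjusted p = 0.229) and passed without DMSO replicate 1, at an adjusted p of 0.0353. The DHAR2 sum was 225.5, 377.7 and 369.3 FPKM in DMSO and 225.8, 202.0 and 166.9 FPKM in AZD. DMSO replicate 1 lay within the AZD range, so that the groups overlapped (adjusted p = 0.128, and 0.0216 without that library). The ratio of DHAR3 to DHAR2 was 0.154, 0.0793 and 0.0649 in DMSO and 0.279, 0.293 and 0.341 in AZD, a ratio chosen after the values were seen.

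Monodehydroascorbate reductases return the ascorbate radical to ascorbate, and none of their 6 tested copies was called (1 had an unadjusted p under 0.05). MDAR1, a peroxisomal form in Arabidopsis, was led by Gh_D09G1329 at 62.0, 115.6 and 98.5 FPKM in DMSO and 53.3, 43.7 and 50.3 FPKM in AZD (log2 fold change -0.86, SE 0.25, adjusted p = 0.107). The groups did not overlap, and without DMSO replicate 1, the library nearest to AZD, the adjusted p was 0.0183. The plastid and mitochondrial MDAR6 had 12.5 ± 2 FPKM in DMSO and 12.0 ± 0.563 FPKM in AZD for Gh_D12G2745 (adjusted p = 0.883). The 2 copies of MDAR2 were at or below 0.689 FPKM in every library and were not tested. Gh_D13G1521, the one of higher mean, read 0.435, 0.377 and 0.413 FPKM in DMSO and 0.239, 0.236 and 0.400 FPKM in AZD.

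Glutathione reductases recover glutathione with NADPH, and none of 6 tested copies was called (2 at an unadjusted p under 0.05). The cytosolic GR1 was led by Gh_D02G1229 with 29.1, 25.3 and 24.9 FPKM in DMSO and 19.7, 17.0 and 23.2 FPKM in AZD (log2 fold change -0.40, adjusted p = 0.189). GR2 of plastids and mitochondria was led by Gh_A11G1167 with 16.9 ± 2.31 FPKM in DMSO and 15.6 ± 0.626 FPKM in AZD (SD, n = 3 each, adjusted p = 0.694). The GR1 copy lay lower in each AZD library, by less than the test could call, and the GR2 copy overlapped.

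Peroxiredoxins reduce peroxides through a reactive cysteine, and none of 10 tested copies was called (3 at an unadjusted p under 0.05), with a median log2 fold change of 0.41. The chloroplast 2CPB, a 2-Cys peroxiredoxin, read 79.0, 76.7 and 40.7 FPKM in DMSO and 146.4, 148.5 and 93.7 FPKM in AZD for Gh_D04G0917 (log2 fold change 1.01, SE 0.32, adjusted p = 0.129). The groups did not overlap, and replicate 3 was the lowest in both. PRXQ of the thylakoid had 158.5 ± 35.4 FPKM in DMSO and 182.6 ± 29.3 FPKM in AZD for Gh_D08G2567 (adjusted p = 0.62). The plastid PRXIIE had 17.7 ± 6.07 and 25.9 ± 5.59 FPKM for Gh_A01G1793 (adjusted p = 0.273). The cytosolic PRXIIB held the most abundant of all 74 copies, Gh_A08G2151, at 187.1, 376.8 and 282.3 FPKM in DMSO and 278.0, 288.4 and 236.4 FPKM in AZD (log2 fold change -0.02, adjusted p = 0.972), with every AZD library inside the DMSO range.

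By compartment, the 5 copies called higher were all among the 24 tested copies of plastid enzymes. Of these 24, 20.8% were called higher beside 1.89% of all tested genes, and their median log2 fold change was 0.34. In 10 of the 24 AZD lay above DMSO without overlap, beside 14.5% of all tested genes, and in 0 it lay below. Of these 10, CSD2 Gh_D05G0857 reached the tested level only through its AZD values. Among the 40 tested scavenger copies of other compartments 0 were called higher and 1 lower, with a median of -0.03. The 24 cytosolic copies had 0 calls and a median of -0.04, and the 12 peroxisomal copies 0 calls and a median of 0.06. At an unadjusted p under 0.05 there were 2 cytosolic and 3 peroxisomal copies.

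Not all plastid enzymes lay higher. SAPX, FSD2, FSD3, MDAR6, GR2 and PRXQ had no called copy, and 7 of the 24 plastid copies had a negative fold change. The summed level of plastid enzymes was 791.4, 825.6 and 595.0 FPKM in DMSO and 1146, 1018 and 932.7 FPKM in AZD, so that the groups did not overlap. The scavengers of other compartments summed to 1806, 2613 and 2285 FPKM in DMSO and 2161, 2036 and 1886 FPKM in AZD, all within the DMSO range. Beside the plastid values stands the photosynthesis list, with 19 of its 42 tested genes called higher and 1 lower. Of all tested genes, 1.89% were called higher and 2.80% lower. The median log2 fold change of the list was 1.37. The part of such a shift in the plastid enzymes was not tested.

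**Figure D3:**
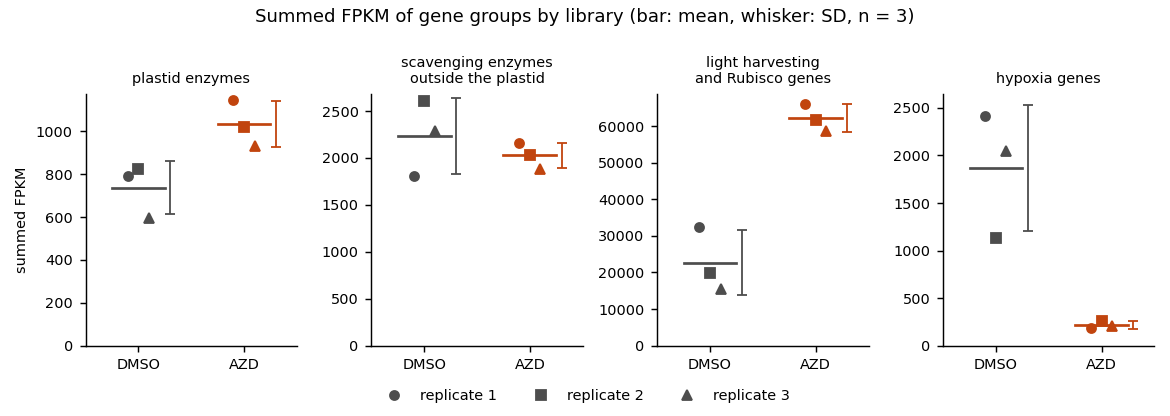
Summed FPKM per library for the plastid enzymes, the scavengers of other compartments, the photosynthesis (light harvesting and Rubisco) genes and the low-oxygen (hypoxia) genes, on axes from 0, with bars for the mean and whiskers for the SD (n = 3). The plastid and photosynthesis sums lie higher in every AZD library, the low-oxygen sum lies lower, and the other scavengers overlap.

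**Figure D4:**
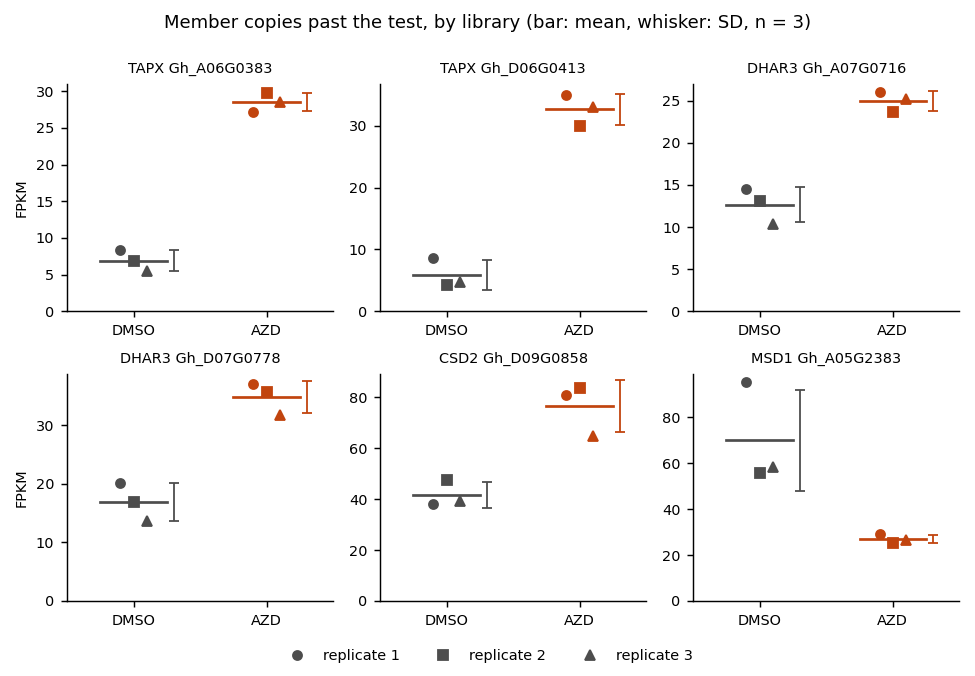
FPKM per library of the 6 called copies, with bars for the group mean and whiskers for the SD (n = 3), each panel with its own axis from 0. The 5 copies of TAPX, DHAR3 and CSD2 are higher in each AZD library, and MSD1 Gh_A05G2383 is lower.

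The NADPH oxidases RBOHD (AT5G47910) and RBOHF (AT1G64060) make superoxide outside the cell and are known in Arabidopsis from defence and stomatal signalling. Of their 17 copies, 12 were below the tested level, and those tested were low, at a mean of 0.524 to 4.21 FPKM. None was called, and 0 had an unadjusted p under 0.05, while all 5 fold changes were negative. RBOHD Gh_A05G2211 read 5.46, 3.95 and 4.71 FPKM in DMSO and 3.27, 3.53 and 4.35 FPKM in AZD (log2 fold change -0.30, adjusted p = 0.33). RBOHD Gh_D05G2471 read 2.26, 1.65 and 2.41 FPKM in DMSO and 1.44, 1.34 and 1.60 FPKM in AZD, just without overlap (log2 fold change -0.40, SE 0.17, adjusted p = 0.218).

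The 3 tested RBOHF copies overlapped between the groups. Gh_D12G2750 read 5.29, 1.80 and 3.44 FPKM in DMSO and 1.72, 2.02 and 2.60 FPKM in AZD (log2 fold change -0.53, adjusted p = 0.407). Gh_A12G2669 read 3.75, 1.39 and 1.58 FPKM in DMSO and 1.39, 1.29 and 1.86 FPKM in AZD (log2 fold change -0.36, adjusted p = 0.567). In both, DMSO replicate 1 was above the other 5 libraries. Gh_D12G1807 had 0.635 ± 0.192 FPKM in DMSO and 0.413 ± 0.153 FPKM in AZD (adjusted p = 0.538).

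Among alternative oxidases, the copies of AOX1A (AT3G22370) lay lower and 2 AOX2 copies higher in AZD, and no single copy was called (4 of 5 at an unadjusted p under 0.05). AOX1A Gh_A12G2493 read 21.0, 2.27 and 5.58 FPKM in DMSO and 0.432, 0 and 0.785 FPKM in AZD. The groups did not overlap, but DMSO alone spanned 2.27 to 21.0 FPKM (log2 fold change -3.08, SE 0.76, adjusted p = 0.0735, and 0.0532 to 0.205 with 1 library left out). Its D12 counterpart, Gh_D12G2621, read 6.06, 0.756 and 1.32 FPKM in DMSO and 0.370, 0.0669 and 0.483 FPKM in AZD (log2 fold change -1.65, SE 0.62, adjusted p = 0.18). Both copies had the same order of libraries, with DMSO replicate 1 the highest and AZD replicate 2 the lowest. Their sum was 12.3 ± 12.9 FPKM in DMSO and 0.712 ± 0.606 FPKM in AZD (log2 fold change -3.04, adjusted p = 0.0618, and 0.0424 without DMSO replicate 2).

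AOX2 (AT5G64210) encodes another form of the enzyme. Its main copy, Gh_A03G1527, read 9.91, 20.0 and 13.3 FPKM in DMSO and 31.7, 24.0 and 32.4 FPKM in AZD (log2 fold change 1.05, SE 0.27, adjusted p = 0.081, and 0.0478 without DMSO replicate 2). A copy on an unplaced scaffold, Gh_Sca047319G01, read 0.340, 3.15 and 2.30 FPKM in DMSO and 7.84, 7.19 and 11.6 FPKM in AZD (log2 fold change 2.16, SE 0.55, adjusted p = 0.0784, and 0.0258 without DMSO replicate 1). In both copies each AZD library was above each DMSO library. The remaining tested copy, Gh_A04G0970, read 1.70, 0.105 and 0.207 FPKM in DMSO and 0.900, 0.651 and 0.999 FPKM in AZD, with DMSO replicate 1 above all others (log2 fold change 0.45, adjusted p = 0.644).

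Summed over its 5 copies, AOX2 was called higher. The sum was 13.4, 23.3 and 15.8 FPKM in DMSO and 41.0, 32.1 and 45.6 FPKM in AZD (2.26 times higher, log2 fold change 1.18, SE 0.23, limma adjusted p = 0.0322). The call held without DMSO replicate 1 or 2 (adjusted p = 0.0384 and 0.0182) and was lost without DMSO replicate 3 or AZD replicates 1, 2 and 3, at 0.0911, 0.131, 0.0751 and 0.104. The ratio of summed AOX2 to summed AOX1A, chosen after the values were seen, was 0.493, 7.72 and 2.29 in DMSO and 51.2, 480.2 and 35.9 in AZD. AOX1A exceeded AOX2 only in DMSO replicate 1, and AOX2 was the main form in the other 5 libraries. In the low-oxygen list, 17 of its 36 tested genes were called lower, beside 2.80% of all tested genes. The median log2 fold change of that list was -2.18, and its part in the AOX1A values was not tested.

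**Figure D5:**
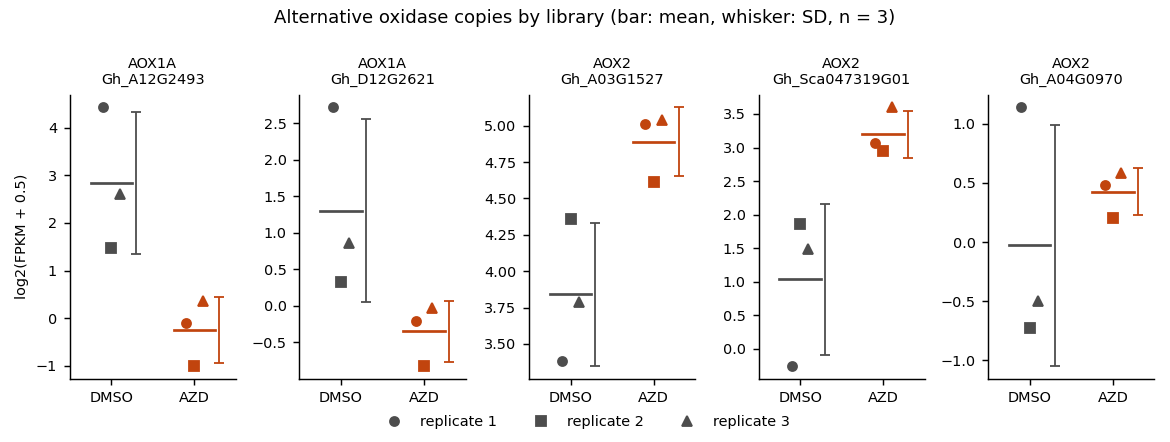
Log2(FPKM + 0.5) per library of the tested AOX1A and AOX2 copies, with bars for the group mean and whiskers for the SD (n = 3). The AOX1A copies lie lower in AZD, Gh_A03G1527 and Gh_Sca047319G01 of AOX2 lie higher, and Gh_A04G0970 overlaps.

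Over the summed copies, 4 loci were called higher (TAPX, CSD2, DHAR3 and AOX2) and 0 lower, or 15.4% of the 26 member sums, beside 8.29% of 13335 locus sums (3.64% higher and 4.66% lower). The groups did not overlap in 8 of the 26 (6 above and 2 below), or 30.8%, beside 33.6% of all sums (16.0% above and 17.6% below). At an unadjusted p under 0.05, 10 of the 26 member sums passed, beside 3630 of the 13335 sums (27.2%).

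Related genes outside the list were read in the same fit. Of 32 tested genes of other members of these families, 0 were higher and 2 lower, beside 1.89% and 2.80% of all tested genes. Their median log2 fold change was 0.23. At an unadjusted p under 0.05 there were 15 of the 32, beside 23.4% of all tested genes. AZD lay above DMSO without overlap in 9 of the 32, beside 14.5% of all tested genes, and below in 5 of the 32, beside 15.5%. Genes matched to the catalase CAT2 were not called and ran both ways. CAT2 Gh_D03G0021 had 187.9 FPKM in DMSO and 283.2 FPKM in AZD, and Gh_D01G0873 had 112.9 and 70.8 FPKM. A 1-Cys peroxiredoxin matched to PER1, Gh_D10G1825, a seed protein in Arabidopsis, read 102.7, 97.3 and 90.1 FPKM in DMSO and 7.86, 9.23 and 9.18 FPKM in AZD (11.0 times higher in DMSO, log2 fold change -3.39, SE 0.13, limma adjusted p = 0.000449). The A10 gene matched to PER1, Gh_A10G1567, did not follow it. That gene read 6.77, 12.2 and 8.91 FPKM in DMSO and 10.5, 11.7 and 10.3 FPKM in AZD (log2 fold change 0.24, limma adjusted p = 0.547). The seed storage list beside these PER1 genes had 4 tested genes and 0 called (1 at an unadjusted p under 0.05). A gene matched to RBOHE, Gh_Sca061303G01, read 3.41, 3.29 and 0.765 FPKM in DMSO and was listed at 0 in each AZD library (limma adjusted p = 0.0422). It reached the tested level through its DMSO values alone, and its AZD values had no spread.

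Glutathione peroxidases had 0 calls among 15 tested genes (1 at an unadjusted p under 0.05). Of 27 tested genes of ascorbate and glutathione synthesis, 2 were higher and 1 lower, beside 1.89% and 2.80% of all tested genes. All 3 were matched to VTC2, which makes the committed step of ascorbate synthesis. VTC2 Gh_D01G0665 rose from 55.4 ± 9.69 to 119.2 ± 3.82 FPKM (SD, n = 3 each, log2 fold change 1.11, limma adjusted p = 0.024), and Gh_A01G0646 from 30.7 ± 4.07 to 51.9 ± 1.23 FPKM (limma adjusted p = 0.0411). Another copy, VTC2 Gh_A04G0114, fell from 25.5 ± 2.38 to 14.2 ± 0.288 FPKM (log2 fold change -0.81, limma adjusted p = 0.0245). In all 3 copies the groups did not overlap. The other tested VTC2 genes were not called. Their log2 fold changes ran from -0.61 to 0.16 and were negative except for that of Gh_D05G3607.

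The type II NAD(P)H dehydrogenases feed electrons into the respiratory chain beside complex I, and 2 of their 9 tested genes were higher, beside 1.89% of all tested genes. Both were matched to NDA2. NDA2 Gh_A09G0845 read 2.21, 0.33 and 0.208 FPKM in DMSO and 18.2, 15.2 and 17.8 FPKM in AZD (18.7 times higher, log2 fold change 3.91, SE 0.50, limma adjusted p = 0.0159). Its D09 counterpart, Gh_D09G0867, was listed at 0 in each DMSO library and read 4.1, 4.28 and 6.36 FPKM in AZD (limma adjusted p = 0.00232). That gene reached the tested level through its AZD values alone, and its equal DMSO values gave the test no spread in that group. The A07 and D07 genes matched to NDA2 did not follow. Gh_A07G0947 had 6.04 FPKM in DMSO and 6.41 FPKM in AZD (log2 fold change 0.09, limma adjusted p = 0.773). Gh_D07G1027 had 3.67 and 3.58 FPKM (log2 fold change -0.03, limma adjusted p = 0.922). Among 9 tested genes known from the mitochondrial stress response of Arabidopsis, 1 was higher, beside 1.89% of all tested genes. It was a dicarboxylate carrier matched to DIC1, Gh_A11G1864, at 20.8, 20.1 and 21.9 FPKM in DMSO and 36.0, 43.6 and 44.3 FPKM in AZD (log2 fold change 0.95, limma adjusted p = 0.021). In 5 of these 9 AZD lay above DMSO without overlap, beside 14.5% of all tested genes. These lists were read for the pathways around the antioxidant genes and rest on the same 6 libraries.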

How the data were processed

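RNA of cotton seedlings was sequenced in 6 libraries, 3 labelled DMSO and 3 labelled AZD, described as biological repeats. The authors trimmed reads and made gene values with TopHat2, Cufflinks and Cuffdiff, and the FPKM they deposited were used unchanged. Not given in the sources used here are versions, genome build, the use of strand in counting and any rescaling between libraries. Fragment counts were not analysed here, so counting intervals are not given. Relative depth read from the step between low values was 0.927 to 1.46 times that of DMSO replicate 1. This is an indirect estimate, and its order of libraries differs from that of the published numbers of clean reads. Gene names are those of the deposited Arabidopsis match, and 0 gene IDs matched the reference gene list, so no sequences are printed. All 6 columns were used and 0 left out.

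Differences of log2(FPKM + 0.5) were tested with limma 3.58.1 (R 4.3.3, trend, two-sided, Benjamini-Hochberg, threshold 0.05) over genes averaging 0.5 FPKM or more, and over sums of copies per Arabidopsis locus. The test was run on simulated data with equal spread in both groups, which the libraries here do not have. Python 3.11.15, pandas 2.3.3, numpy 2.4.6, scipy 1.17.1 and matplotlib 3.10.9 handled tables and plots. Named were called copies, the most abundant copy of each locus, all tested RBOH and AOX copies, and the 3 largest rises and falls without overlap. Named beyond that rule, after their values were seen, were counterparts of called copies, copies whose call turned on 1 library, and the genes of the related lists. The members and lists were chosen with earlier results of these data known. The settings varied were the pseudocount (0.1 or 1), the filter (none, or an average of 1 FPKM or more), median-of-ratios scaling, quantile normalization, no trend, a replicate block and leaving out each library.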

Additional observations from a re-analysis of the deposited data

How the results depend on the processing

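The 6 called copies were called again with a pseudocount of 0.1 or 1, with no filter or a mean of at least 1 FPKM, with median-of-ratios scaling, with quantile normalization and without the trend. Quantile normalization called 6 copies higher in place of 5, and 1 locus sum lower (MSD1) in place of 0. With 1 library left out, 1 to 6 copies were higher and 0 to 5 lower, and 0 to 4 locus sums were higher and 0 to 2 lower. The counts without DMSO replicate 1 were 6 higher and 5 lower, in a fit that called 8.36% of all tested genes, beside 4.69% over all libraries. The cause was not tested. Deviations from the group mean of libraries with the same number correlated at 0.0182, -0.0421 and -0.088, beside -0.121 to 0.175 for the other pairs. Deviations from a mean of 3 libraries depend on each other, so these values cannot exclude a pairing. With the replicate block, 0 copies were higher and 0 lower, 1 locus sum was higher (DHAR3, adjusted p = 0.0497), and 20 copies had an unadjusted p under 0.05. The block fit called 0.167% of all tested genes. Adjusted p of the 6 copies ranged there from 0.0627 to 0.117. Of 486 values of named copies under the alternatives, 453 stayed on their side of the threshold, 29 lost a call and 4 gained one. The sign changed in 13 of the 453, all from leaving out a library, in 5 copies that were not called (APX1 Gh_A05G0863, SAPX Gh_A05G3726, MDAR6 Gh_D12G2745, PRXIIB Gh_A08G2151 and RBOHF Gh_A12G2669). Of 182 medians, 3 moved: alternative oxidases to -0.30 and mitochondrial copies to -0.30 with a mean of at least 1 FPKM, and mitochondrial copies to -0.14 without DMSO replicate 1.

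With 3 libraries a group, most calls were lost when some single library was left out: of the 6 called copies, 5 passed without DMSO replicate 1, 3 on dropping DMSO replicate 2, 2 on dropping DMSO replicate 3, and 1 (TAPX Gh_A06G0383) on dropping AZD replicate 1, 2 or 3. The called share of all tested genes changed likewise. It was 4.69% over all libraries and 8.36%, 2.52% and 1.15% without DMSO replicate 1, 2 and 3. Without AZD replicate 1, 2 and 3 that share was 0.46%, 0.614% and 0.759%. Without counts, the precision of low values such as those of RBOH, AOX1A and MDAR2 is unknown. A and D copies share sequence, so a difference between copies of 1 locus depends on how reads were assigned.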
